A study of Homo sapiens with 2 samples.

Results

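The 10 genes described here encode the mitochondrial chaperones and proteases HSPA9, GRPEL1, GRPEL2, HSPD1, HSPE1, TRAP1, LONP1, CLPP, CLPX and YME1L1. They were chosen by name and not by a rule on their values, though earlier results of these data were known. By symbol they matched 10 of the 57736 genes listed in each table. RNA-Seq was run on poly(A)+ RNA of wild type HEK293T cells, an established line from human embryonic kidney into which the large T antigen of SV40 was introduced. By the sample records, both libraries came from cells heated at 43 °C for 20 min and returned to 37 °C for 6 h. The paper states a longer time at 43 °C. Each replicate was lysed on its own. The labels gave 1 group of 2 libraries, with 22529828 expected counts in replicate 1 and 26890199 in replicate 2. The untreated cells of the study are not analysed here, so no response to heat shock was measured, and the values describe the levels after recovery and the spread between these libraries. Of 4 markers of the line that were matched, all 4 reached a TPM of 1 in each library (TPM counts transcripts of a gene per length and per total). Of 7 matched markers of blood, liver, fibroblasts and keratinocytes, 1 did, COL1A1, at 24.1 and 20.9 TPM, whereas its partner collagen gene COL1A2 was listed at 0 and 0.01 TPM, and their part in the values below was not tested.

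Most mitochondrial proteins are made in the cytosol, pass both membranes unfolded and must be folded inside. HSPA9 (mortalin) pulls them into the matrix and folds them in cycles of ATP hydrolysis, the HSPD1 and HSPE1 chaperonin encloses them, and proteins that fail to fold are cut by ATP-driven proteases of the matrix and the inner membrane. Stress in the mitochondrial matrix is known to raise the transcripts of several of these genes in mammalian cells.

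All 10 genes were detected, with 1 TPM or more in each library, as were 15188 genes in all. TRAP1, HSPA9, HSPD1, HSPE1 and CLPP had the highest levels, and CLPX and GRPEL2 had the lowest, 28.6-fold below the top in the mean TPM of CLPX against TRAP1. The least counted of the 10 had a summed count of 1942 over both libraries and the most counted had 28995. Together they held 0.236% of all TPM in replicate 1 and 0.234% in replicate 2, and 0.204% and 0.195% of the expected counts. Genes named as nuclear copies of mitochondrial genes were assigned 19.1% and 19.5% of all TPM in the same libraries. Every TPM given here is thus a share of a total that includes them. Whether the reads behind that share came from the copies or from mitochondrial RNA was not tested.

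HSPA9 (ENSG00000113013, chromosome 5, 137889445 to 137911364 in GRCh37, minus strand) encodes the matrix Hsp70, which is also the motor of import. It had 559 TPM in replicate 1 and 598 TPM in replicate 2, a mean of 578.7 ± 27.8 (SD, n = 2), above 98.8% of the detected genes. GRPEL1 and GRPEL2 encode the nucleotide exchange factors that release ADP from HSPA9. GRPEL1 (ENSG00000109519, chromosome 4, 7060398 to 7069812, minus strand) had 87.0 TPM and 81.6 TPM, with a mean of 84.3 ± 3.83 (SD, n = 2). GRPEL2 (ENSG00000164284, chromosome 5, 148724993 to 148734146, plus strand) had 20.8 TPM and 28.0 TPM, with a mean of 24.4 ± 5.07 (SD, n = 2). GRPEL1 was thus the higher of the 2 exchange factors in both libraries, and the lower value of GRPEL1 lay above the higher value of GRPEL2.

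HSPD1 encodes the Hsp60 chaperonin that forms the folding ring, and HSPE1 encodes the co-chaperonin that closes it. HSPD1 (ENSG00000144381, chromosome 2, 198351308 to 198381461, minus strand) had 341.8 TPM in replicate 1 and 411.4 TPM in replicate 2, with a mean of 376.6 ± 49.2 (SD, n = 2). HSPE1 (ENSG00000115541, chromosome 2, 198364864 to 198368173, plus strand) had 220.4 TPM and 255.8 TPM, with a mean of 238.1 ± 25.01 (SD, n = 2). Both genes of the chaperonin were higher in replicate 2 by TPM, and their ranges did not overlap.

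HSPD1 and HSPE1 stand head to head and their RefSeq starts, matched to GRCh37, are 104 bases apart, with HSPD1 transcribed from 198364998 and HSPE1 from 198365103. The stretch of 30 bases at chr2:198365069-198365098 (plus strand, RefSeq promoter sequence, placed in GRCh37 by exact match) is shown because it lies between these starts and holds the E-box CACGTG, in capitals, 16 bases before the HSPE1 start. HSPD1 has a second RefSeq start at 198364564. The stretch at chr2:198364785-198364814 (minus strand) is shown because it holds overlapping units of the heat shock element, in capitals, 189 bases inside the transcribed side of the upstream HSPD1 start and 228 bases before the second start. It lies within an annotated exon of 2 HSPD1 transcripts. Whether these exons are coding, and where the stretch falls in the main HSPD1 transcript, was not tested.
E-box between the HSPD1 and HSPE1 starts: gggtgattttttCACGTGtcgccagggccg
Heat shock element units in HSPD1: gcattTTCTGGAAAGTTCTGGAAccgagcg

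TRAP1 (ENSG00000126602, chromosome 16, 3701640 to 3767554, minus strand) encodes the mitochondrial member of the Hsp90 family. It had 661 TPM in replicate 1 and 529 TPM in replicate 2, a mean of 595 ± 93.4 (SD, n = 2), the highest mean of the 10 genes. Its range took in that of HSPA9, so the order of these 2 was not settled: TRAP1 was the higher in replicate 1 and HSPA9 the higher in replicate 2.

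LONP1 encodes a matrix protease that joins its ATPase and its protease in a single chain. LONP1 (ENSG00000196365, chromosome 19, 5691845 to 5720583, minus strand) had 146.2 TPM and 126.6 TPM, with a mean of 136.4 ± 13.9 (SD, n = 2). CLPX and CLPP make the other matrix protease as separate chains, CLPX as the unfolding ATPase and CLPP as the peptidase chamber. CLPP (ENSG00000125656, chromosome 19, 6361542 to 6370253, plus strand) had 252.6 TPM and 214.9 TPM, with a mean of 233.8 ± 26.6 (SD, n = 2). CLPX (ENSG00000166855, chromosome 15, 65440557 to 65477680, minus strand) had 17.7 TPM and 23.9 TPM, with a mean of 20.8 ± 4.35 (SD, n = 2), above 60.0% of the detected genes. The chamber was the highest and its ATPase the lowest of the 4 protease genes by TPM, and their ranges did not overlap. With canonical lengths, described below, CLPX stayed the lowest, but LONP1 was above CLPP in each library.

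YME1L1 (ENSG00000136758, chromosome 10, 27399040 to 27444195, minus strand) encodes the ATP-driven protease of the inner membrane that faces the intermembrane space. It had 58.1 TPM in replicate 1 and 72.5 TPM in replicate 2, with a mean of 65.3 ± 10.2 (SD, n = 2). Its range lay below that of GRPEL1 and above that of GRPEL2. With canonical lengths it was above GRPEL1 in each library, at 39.4 and 49.4 TPM against 27.8 and 26.0 TPM.

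In the order of mean TPM, 6 of 9 pairs of neighbours had ranges that did not overlap. The other 3 pairs, TRAP1 with HSPA9, HSPE1 with CLPP, and GRPEL2 with CLPX, overlapped, and no order was read within them. With 2 libraries no permutation test could separate any pair, so these statements describe the measured ranges.

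**Figure D1:**
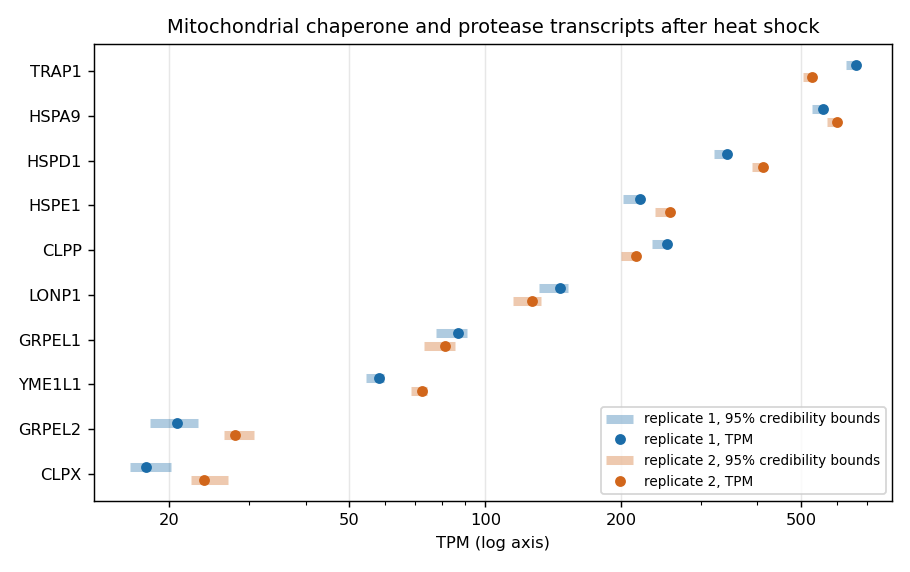
TPM of the 10 genes (log axis, points) in replicate 1 and replicate 2, ordered by mean TPM, with the deposited 95% credibility bounds as bands. The bands surround the posterior mean TPM, so a point can lie above its band, as for TRAP1 in replicate 1 at 661 TPM with bounds of 626.9 and 658.4.

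TPM divides the reads of a gene by a length, and the levels depended on that length. The tables give for each gene a mean transcript length, weighted by the isoform shares that the quantifier estimated. For HSPA9 this length was 908 bases in replicate 1 and 923 bases in replicate 2, whereas the coding sequence of its canonical transcript takes 2040 bases in the GENCODE annotation of GRCh37. A mean that short allows at most 44.5% and 45.2% of the estimated HSPA9 transcripts to hold the whole coding sequence. TRAP1, HSPD1, LONP1 and CLPP also had a mean length under their coding length in both libraries. TRAP1 had 1292 and 1321 bases against a coding length of 2115, and LONP1 had 1603 and 1609 bases against 2880. The mean length was below the coding length in 5 of the 10 genes, and in 25.8% of 12302 detected protein-coding genes. In the other members it was above it, and in HSPE1 (567.5 and 564.6 bases) it was close to the canonical transcript of 557 bases. Whether short isoforms were present in the cells was not tested, since the reads behind the isoform shares are not analysed here.

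**Figure D2:**
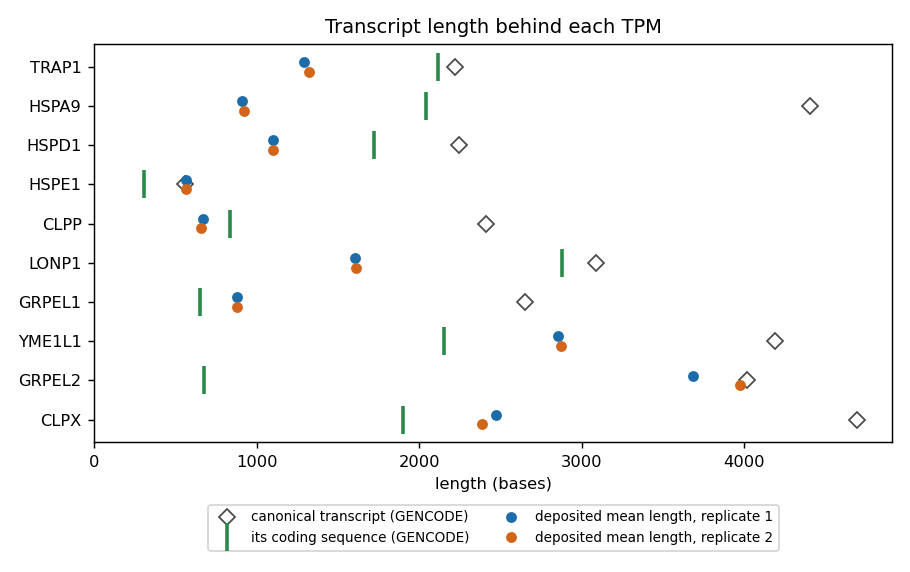
Mean transcript length deposited for each gene in replicate 1 and replicate 2 (points, in bases) beside the length of its canonical transcript (diamond) and of that transcript's coding sequence (bar). For TRAP1, HSPA9, HSPD1, CLPP and LONP1 both points lie to the left of the bar.

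When the length of the canonical transcript replaced the deposited mean length, a choice made once the data had been seen, 6 of the 10 genes changed place in the order. HSPA9 fell from the second place to the fourth, from a mean of 578.7 TPM to 115 ± 6.96 (SD, n = 2), and HSPE1 rose to the second at 242 ± 24.5 (SD, n = 2). TRAP1 kept the first place at 344 ± 48.4 (SD, n = 2) and CLPX the last at 10.6 ± 1.96 (SD, n = 2). Only the members were rescaled, and the total of TPM was left as deposited. Over 12302 detected protein-coding genes the median deposited length was 65.6% of the canonical length. The canonical values are therefore compared among the members only, and not with the deposited TPM of other genes. The canonical lengths come from a later annotation release than the one the methods name. Of 2648 protein-coding genes with 1 listed transcript, 29.3% had an equal length, within 0.5 base, in both, so the canonical values are themselves approximate.

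Ratios of TPM within a library were then taken for genes whose products work as partners. HSPD1 was 1.55 times HSPE1 in replicate 1 and 1.61 times in replicate 2. The values of the 2 libraries were close, but with canonical lengths the ratio was 0.730 and 0.760, so that HSPE1 was the higher. CLPX was 0.0701 times CLPP in replicate 1 and 0.111 times in replicate 2, which puts CLPP 14.3-fold and 9.01-fold higher. With canonical lengths CLPX was 0.139 and 0.216 times CLPP, and CLPP stayed the higher in both libraries.

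HSPA9 was 5.19 and 5.46 times the sum of its exchange factors GRPEL1 and GRPEL2, and 2.36 and 2.24 times that sum with canonical lengths. GRPEL2 was 0.239 and 0.343 times GRPEL1. With canonical lengths the ratio was 0.685 in replicate 1 and 1.06 in replicate 2, so the order of the exchange factors seen by TPM did not hold in replicate 2. LONP1 was 0.579 and 0.589 times CLPP, and 1.13 and 1.17 times CLPP with canonical lengths. LONP1 was 2.52 and 1.75 times YME1L1, and remained above it with canonical lengths at 1.90 and 1.31.

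**Figure D3:**
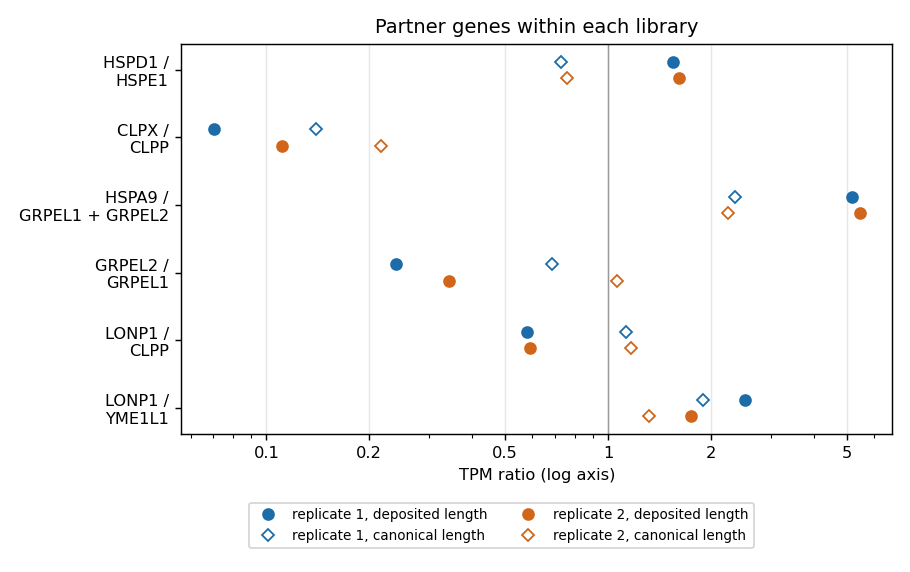
TPM ratios of partner genes within replicate 1 and replicate 2 (log axis), with the deposited lengths (points) and the canonical lengths (diamonds). The vertical line marks equal levels: HSPD1 over HSPE1 and LONP1 over CLPP lie on opposite sides of it under the 2 lengths, and CLPX over CLPP lies left of it under both.

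Several of the genes share sequence with other genes, and a read of 50 bases from such a stretch cannot be placed by its sequence alone. The share of 50-base sequences of reference transcripts also present in another gene was 31.2% for TRAP1, 17.0% for HSPE1, 10.6% for HSPD1 and 6.17% for YME1L1, between 1.01% and 3.17% for CLPP, CLPX, GRPEL2, HSPA9 and LONP1, and 0% for GRPEL1. For TRAP1 the partner was mainly DNASE1, an overlapping gene on the other strand with 597.3 and 748.5 expected counts, against 15007.3 and 13987.7 for TRAP1. For YME1L1 it was MASTL, which overlaps its start on the other strand and had 736.1 and 1246.6 counts, against 2975.9 and 4251.4. For HSPE1 the largest share, 7.39%, was with the readthrough gene HSPE1-MOB4. That gene had 0 expected counts in both libraries, with posterior SDs of 4.39 and 7.17. With HSPD1, on the other strand, HSPE1 shared 4.42% of its 50-base sequences. No source used here says whether strand entered the counting, so reads of such overlaps cannot be told apart by strand.

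HSPD1 and HSPE1 have many processed pseudogenes, copies of the spliced transcript elsewhere in the genome. The tables list 49 pseudogenes of the 10 genes by name, 26 of HSPE1, 18 of HSPD1, 3 of GRPEL2, 1 of HSPA9 and 1 of YME1L1. They received 25.9 expected counts in replicate 1 and 48.0 in replicate 2 in all, and 18 of the 49 had any. The pseudogenes of HSPE1 took 0.716% and 1.14% of the counts of that family, and those of HSPD1 took 0.115% and 0.170%. The pseudogene with most counts, HSPE1P3 on chromosome 15 (91177957 to 91178265), had 0 counts in replicate 1 and 21.5 in replicate 2, with posterior SDs of 5.69 and 11.8, so its count lay within 2 posterior SDs of 0 in both libraries. HSPD1P1 had 3.30 and 3.74 counts. GRPEL2-AS1, an antisense gene of GRPEL2, had 5.93 and 3.88. For the 10 genes themselves the posterior SD, which measures how surely shared reads were assigned, was at most 0.634% of the count, in HSPE1.

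The coding stretches below are shown because they are identical, base for base, in the gene and in its copy, and because each crosses the junction of exons 3 and 4, which a processed pseudogene keeps. The first is found in HSPE1 (bases 285 to 334 of its canonical transcript, chr2:198367821-198367950, plus strand, intron included) and in 4 other genes, HSPE1P3 among them. The second is found in HSPD1 (bases 447 to 496, chr2:198360093-198361905, minus strand, intron included) and in 3 other genes, HSPD1P1 among them.
HSPE1 and HSPE1P3: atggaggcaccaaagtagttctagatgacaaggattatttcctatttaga
HSPD1 and HSPD1P1: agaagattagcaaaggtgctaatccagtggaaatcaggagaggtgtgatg

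The next question was how far the levels of the 10 genes differed between the libraries beyond counting noise. An exact two-sided binomial test on the expected counts of each gene, with Benjamini-Hochberg adjustment over 19714 genes, compared these 2 libraries and not conditions. It called 8 of the 10 genes, 4 higher in replicate 2 (GRPEL2, CLPX, YME1L1 and HSPD1) and 4 higher in replicate 1 (TRAP1, CLPP, LONP1 and GRPEL1). It called 43.1% of all genes tested, 20.9% higher in replicate 2 and 22.2% higher in replicate 1, and 72.5% of 7974 well-counted genes, those whose counts summed to 1000 or more, to which all 10 belong. The 8 calls are therefore near the background for genes counted this well. The 10 genes had a median log2 ratio of 0.05, beside -0.00112 over all genes tested and -0.08 over the well-counted ones.

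GRPEL2, with 1379.1 counts in replicate 1 and 2281.1 in replicate 2, had the largest ratio toward replicate 2, a log2 ratio of 0.42 after scaling by edgeR TMM factors (95% counting interval 0.33 to 0.52, adjusted p = 5.44e-17, exact binomial test). CLPX, with 783.0 and 1159.0 counts, had a log2 ratio of 0.26 (0.13 to 0.39). YME1L1 had one of 0.21 (0.14 to 0.28), and HSPD1, with 6578.6 and 8997.9 counts, one of 0.15 (0.10 to 0.19). These 4 are a mixed set by role, an exchange factor, an ATPase, an inner membrane protease and the chaperonin.

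TRAP1 had the largest ratio toward replicate 1, a log2 ratio of -0.41 (95% counting interval -0.44 to -0.37, adjusted p = 4.25e-124, exact binomial test). CLPP, with 2854.0 and 2727.0 counts, had a log2 ratio of -0.37 (-0.45 to -0.29), LONP1, with 4148.0 and 4101.9 counts, one of -0.32 (-0.38 to -0.26), and GRPEL1, with 1321.0 and 1408.0 counts, one of -0.21 (-0.32 to -0.10). The counts of these genes were close in the 2 libraries although replicate 2 was the deeper. Both subunits of the CLPX and CLPP protease were called, in opposite directions, as were both exchange factors.

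HSPA9 and HSPE1 did not pass the threshold. HSPA9, with 8765.7 and 10866.9 counts, had a log2 ratio of 0.01 (95% counting interval -0.03 to 0.05, adjusted p = 0.867, exact binomial test). HSPE1, with 2087.7 and 2742.2 counts, had one of 0.09 (0.01 to 0.17, adjusted p = 0.0734, exact binomial test). The HSPE1 call depended on the scaling, since it passed with log2 ratios of 0.14 under library totals, 0.10 under DESeq2 size factors and 0.11 with TMM factors taken over all listed genes. Of these scalings HSPA9 passed under library totals alone, with 0.05.

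The ratios lay along a trend with GC content that ran through all genes. GC content was 40.5% in GRPEL2, 41.7% in HSPD1, 41.9% in YME1L1, 42.0% in CLPX, 42.9% in HSPA9, 44.8% in HSPE1 and 47.1% in GRPEL1, and 57.2%, 59.7% and 62.3% in TRAP1, CLPP and LONP1. Genes were split by GC content into 10 equal classes. The class that holds GRPEL2 and HSPD1 had a median log2 ratio of 0.37, and the class that holds LONP1 one of -0.28. All 4 genes called higher in replicate 2 had a GC content under 45%, and all 4 called higher in replicate 1 had one above that. The cause of the GC trend was not tested.

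With the GC trend over all genes removed, the log2 ratios of the 10 genes drew together, from a range of -0.41 to 0.42 to one of -0.19 to 0.01, and their SD went from 0.29 to 0.07. The exact binomial test then called 5 of the 10, HSPA9, HSPD1, GRPEL1, CLPP and TRAP1, all higher in replicate 1, and 26.8% of all genes tested, 13.3% higher in replicate 1. It called 46.7% of the well-counted genes, for which the split by direction was not taken. TRAP1 had a log2 ratio of -0.18 (adjusted p = 8.05e-25, exact binomial test) and GRPEL1 one of -0.19 (adjusted p = 0.00353). HSPA9, which had not passed before, had one of -0.16 (adjusted p = 3.10e-13, exact binomial test), and HSPD1 went from 0.15 to -0.12. GRPEL2, CLPX, YME1L1, HSPE1 and LONP1 were between -0.07 and 0.01 and did not pass.

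**Figure D4:**
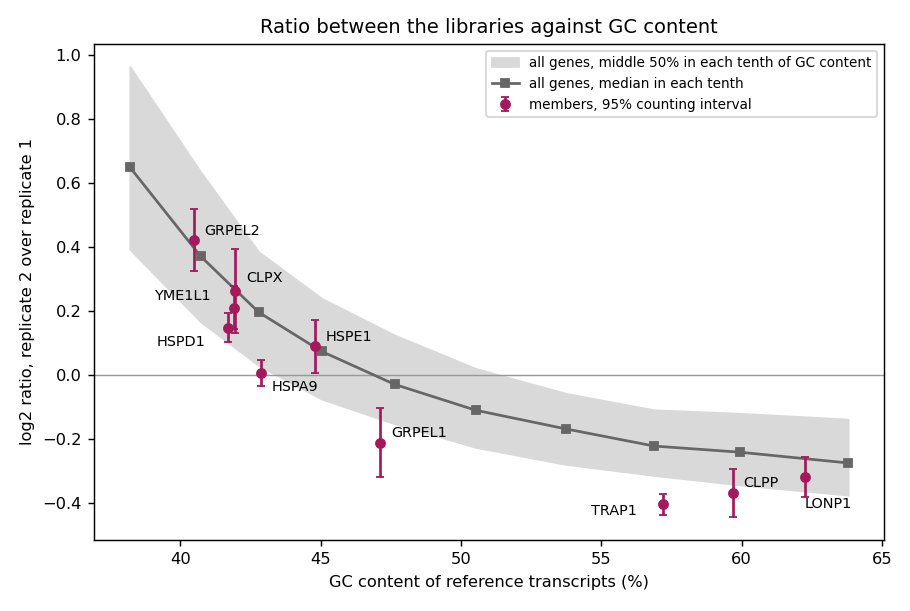
Log2 ratio of replicate 2 over replicate 1 against the GC content (%) of reference transcripts, for the 10 genes (points with 95% counting intervals) and for all genes with 100 or more counts in sum (median, line, and middle 50%, band, in each of 10 equal classes of GC content). GRPEL2, at 40.5% GC and 0.42, and TRAP1, at 57.2% GC and -0.41, mark the ends of the members' range, and TRAP1, CLPP, GRPEL1 and HSPA9 lie below the band or at its lower edge.

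None of the 10 genes passed when the edgeR exact test allowed each gene a biological coefficient of variation of 0.1, a setting that was assumed and not estimated. That test called 7.24% of all genes, and 2 of the 10 had an unadjusted p under 0.05. None of the 10 had an absolute log2 ratio of 0.5 or more, whereas 13.8% of all genes were called by the binomial test with such a ratio.

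The genes that work beside the 10 were then read as lists, whose counts of calls stand against the 43.1% called of all genes, 20.9% higher in replicate 2 and 22.2% higher in replicate 1, and the 72.5% called of well-counted genes. With the GC trend removed, the test called 26.8% of all genes, 13.3% higher in replicate 1, and 46.7% of well-counted genes. The split by direction was not taken for the well-counted genes in either case. Levels in these lists are given as TPM with the deposited lengths only. The translocases of the outer and inner membrane and the small TIMM chaperones between the membranes carry proteins by several routes, of which the route into the matrix ends at HSPA9. They were represented by 19 of 20 names, and TIMM23 was not matched. All 19 were detected, with TOMM6 (177.7 and 166.4 TPM) and TIMM50 (154.5 and 125.2 TPM) at the top and TIMM29 (6.44 and 6.00 TPM) and TIMM8A (14.9 and 16.5 TPM) at the bottom. The exact binomial test called 14 of them, 3 higher in replicate 2 and 11 higher in replicate 1, and 14 of the 19 were well counted. The list's median log2 ratio was -0.24 (GC trend removed, -0.21). With the GC trend removed 11 were called, all 11 higher in replicate 1, and 5 of the 14 earlier calls were lost. Of the 11, 8 had been called in that direction before, 1 in the other direction and 2 not at all. Of 9 genes listed for the import motor and for mitochondrial J-domain proteins and their like, 8 were detected. J-domain proteins start the ATP hydrolysis of Hsp70 proteins, but whether each of the 9 acts on HSPA9 was not tested. TIMM44 (107.3 and 106.0 TPM) and DNAJA3 (83.6 and 77.6 TPM) were the highest, DNLZ had 4.60 and 4.05 TPM, and DNAJC15 stayed under the detection level at 0.33 and 0.41 TPM. The test called 6 of these 9, all 6 higher in replicate 1, with a median log2 ratio of -0.23 (GC trend removed, -0.11), and 4 of the 9 were well counted. With the GC trend removed 5 of the 6 calls were lost and 1 was gained, which left 2.

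All 18 genes listed as other mitochondrial proteases and peptidases were detected, though CLPB among them is not a peptidase. The list's median TPM of 24.0 lay below the levels of LONP1, CLPP and YME1L1 and above the mean of CLPX. PMPCB (102.9 and 107.8 TPM), a subunit of the peptidase that removes targeting sequences, and CLPB (66.7 and 65.9 TPM), a disaggregase, were the highest, and IMMP2L (2.13 and 2.46 TPM) and ATP23 (5.33 and 6.13 TPM) the lowest. The test called 10 of them, 3 higher in replicate 2 and 7 higher in replicate 1, with a median log2 ratio of -0.06 (GC trend removed, -0.04), and 12 of the 18 were well counted. With the GC trend removed 4 of the 10 calls were lost and 2 were gained, which left 8, 2 of them higher in replicate 2. The prohibitins, which form a scaffold around inner membrane proteases, were among the highest of the genes examined, with PHB2 at 625.9 and 515.5 TPM and PHB1 at 181.0 and 154.1 TPM, beside STOML2 at 122.0 and 105.8 TPM. All 3 scaffold genes, each well counted, were called higher in replicate 1, with a median log2 ratio of -0.38 (GC trend removed, -0.16), and all 3 calls held with the GC trend removed.

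The relay that carries mitochondrial stress to the nucleus runs from DELE1 through the kinase EIF2AK1 to the transcription factors ATF4, ATF5 and DDIT3. The list read here also held CEBPB, HSF1 and SIRT3, and all 8 of its genes were detected. ATF4 was the highest with 1106 and 982 TPM, above every one of the 10 chaperones and proteases when all are read with the deposited lengths. EIF2AK1 had 179.5 and 177.3 TPM. DDIT3 (4.14 and 4.64 TPM) and ATF5 (12.1 and 10.2 TPM) were the lowest. The test called 7 of the 8, all 7 higher in replicate 1, with a median log2 ratio of -0.22 (GC trend removed, 0.00), and 6 of the 8 were well counted. With the GC trend removed 5 of the 7 calls were lost, and ATF4 and EIF2AK1 were left. No gene of these lists with 100 or more counts in sum reached an absolute log2 ratio of 1. Without untreated cells none of these levels can be called raised or lowered.

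RefSeq promoter windows, from 250 bases before to 50 bases after a start in GRCh38.p14, were given for 7 of the 10 genes, with 2 starts each for HSPD1 and LONP1, 9 windows in all. CLPP, GRPEL1 and YME1L1 had no entry. The windows were searched on both strands for the heat shock element units GAANNTTC and TTCNNGAA, which overlap where they alternate, for the composite site TGATGNAA of ATF4 and CEBP factors, the NRF1 core GCGCATGC, CCAAT and the E-box CACGTG. Units of the heat shock element were found in the second HSPD1 window, printed above, with 1 GAANNTTC and 2 TTCNNGAA, and in HSPA9, with 1 TTCNNGAA. Among 35116 windows of all genes, 6.77% held GAANNTTC and 7.74% held TTCNNGAA. The E-box was found in 4 of the 9 windows, those of HSPD1 (upstream start), HSPE1, HSPA9 and LONP1, and in 7.26% of all windows, and the windows of HSPD1 and HSPE1 share the 1 site printed above. The NRF1 core was found in 1 LONP1 window, as 4 matches that may overlap, and in 3.05% of all windows, CCAAT in those of GRPEL2 and CLPX and in 34.6%, and TGATGNAA in none of the 9 and in 3.62%. These matches describe letters only, and binding was not measured.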

How the data were processed

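Trimmomatic 0.36, STAR 2.6.1c, RSEM 1.3.1 and hg19/GRCh37.p13 are named by the submitters' processing notes, whereas the methods name featureCounts with an Ensembl list of that build. The deposited tables carry the columns that RSEM writes. The expected counts deposited by the authors split reads that map to several places. TPM, as deposited by the authors, divides by effective length, and lengths stand beside it. The authors also deposited a posterior SD of each count, read as a score of how surely shared reads were assigned, and 95% credibility bounds of TPM, read as a signal that is never negative. The labels give the molecule as genomic DNA, but their protocol describes poly(A)+ RNA read for 50 bases. FPKM columns and a table of the whole series were not used.

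The 10 genes and all gene lists were chosen with earlier results of these data known. Every member was named in full. Of each wider list the 2 genes of highest and the 2 of lowest mean TPM were named, with any of absolute log2 ratio of at least 1 and a summed count of at least 100, and of pseudogenes, readthrough and antisense genes the 3 of highest mean count. MASTL, DNASE1 and HSPE1-MOB4 were added after their values were seen. Symbols were found for 96.1% of 57736 identifiers in GENCODE v44lift37, from which GC content, coding lengths and 50-base sequences were taken. PHB was matched as PHB1 through a RefSeq synonym, and the markers LHX1 and PECAM1 were not matched.

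Expected counts were rounded and compared between the libraries by an exact two-sided binomial test for each gene, given its summed count, scaled by edgeR 4.0.16 TMM factors over the genes whose counts summed to 10 or more, with Benjamini-Hochberg adjustment over the same genes and a threshold of 0.05. The test was also run on simulated counts, which held counting noise alone and no GC trend. Log2 ratios carry a pseudocount of 0.5 count. The GC trend was the median in 50 classes of genes with 100 or more counts in sum, interpolated. Intervals are exact Clopper-Pearson at 95% and cover counting error only, with no term for variation between cultures. Reads carried no molecular identifiers, so amplified copies of the same molecule could not be told apart. The replicates were lysed separately, and a spread from sequencing and one from culture cannot be told apart. Alternatives covered detection rules, scaling (library totals, DESeq2 1.42.0 size factors), filters, pseudocount, GC, posterior means, an edgeR exact test and single libraries. Canonical lengths and TMM over all listed genes were added after seeing the data. Protein sequences were not used here. Python 3.11.15, scipy 1.17.1 and R 4.3.3 were used.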

Additional observations from a re-analysis of the deposited data

How the results depend on the processing

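Members detected were 10 under every detection rule tried except a TPM of at least 100, which 6 passed, and 10 in each library alone. The share of TPM held by the members was 0.235% as the mean of both libraries and 0.234% to 0.236% in single libraries. It was 0.199% of expected counts, 0.292% without nuclear copies of mitochondrial genes in the total and 0.229% by posterior mean TPM. With canonical lengths it was 0.112%. There only the members' lengths were replaced and the total kept the deposited ones, so 0.112% is not a share of a total on the same scale. Canonical lengths also moved the mean ratios to 0.745 for HSPD1 over HSPE1, 0.178 for CLPX over CLPP, 2.30 for HSPA9 over both exchange factors, 0.874 for GRPEL2 over GRPEL1 and 1.15 for LONP1 over CLPP, since the members' lengths changed by unequal factors. The 8 members called between the libraries, 4 in each direction, became 5, with 0 higher in replicate 2, with the GC trend removed, and 0 by the edgeR exact test and 0 with an absolute log2 ratio of at least 0.5. Removing the GC trend turned the median log2 ratio to -0.10 and the ratios of HSPD1 to -0.12, HSPA9 to -0.16, HSPE1 to -0.00333, YME1L1 to -0.0702 and CLPX to -0.0208. Over all genes, 48.5% of calls were higher in replicate 2, and 56.5% under library totals. No paired analysis was possible because both libraries belong to 1 group. At 1942 or more counts per member, depth limited the members' log2 ratios to a median interval half-width of 0.07.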
